A study of Homo sapiens with 12 samples.

Results

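The mRNAs of the SR proteins, the hnRNPs and the LUC7 family, together with the PTB proteins, the TRA2 proteins and the genes named RBM, were followed in total and polysome-associated RNA of HEK293T cells, a human embryonic kidney cell line, with and without knockdown of PRRC2B, an RNA-binding protein studied for its role in translation. The members were chosen by gene symbol, with earlier results of these data known. They were the gene names that begin with SRSF, HNRNP, PTBP, LUC7L, TRA2 or RBM followed by their usual numbers or letters. Pseudogene names and Y-linked genes were left out. This gave 83 of the 59385 gene names in the count table. They were 14 SR genes (SRSF1 to SRSF12, TRA2A and TRA2B), 25 hnRNP genes, 3 PTB genes, 3 LUC7 genes and 38 RBM genes. Of these, 77 passed the filter on low counts and were tested, against 18166 of all names. The other 6 were HNRNPA1L2, HNRNPCL1, HNRNPCL2, HNRNPCL3, HNRNPCL4 and RBM46, which had at most 4 counts in any library. RBM8B, one of the 77, is annotated as a processed pseudogene.

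Both cell lines carried a Dox-inducible lentiviral shRNA, non-targeting in shCtrl cells and directed against PRRC2B in shPRRC2B cells, and both were treated with Dox for 36 h. The study describes its shRNA lines as stable single clones, so an effect of the shRNA and a difference between 2 clones cannot be told apart. Total RNA and the pooled RNA of the heavy, polysome-containing fractions of a sucrose gradient were sequenced after poly(A) enrichment, in 3 biological replicates for each line and fraction (12 libraries). Whether the replicates were separate cultures is not stated beyond that word, and the p-values measure only the spread between these samples.

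SR proteins bind exonic enhancers through RNA recognition motifs and recruit the spliceosome through their arginine- and serine-rich domains, whereas many hnRNPs, and the PTB proteins that bind pyrimidine tracts, act as splicing silencers. LUC7 proteins are partners of the U1 snRNP, the particle that recognises 5′ splice sites. Many of these genes limit their own expression by including a poison exon or retaining an intron, which sends the mRNA to nonsense-mediated decay or keeps it in the nucleus, so their total RNA, their polysome RNA and their protein need not move together. Among the 76 protein-coding members tested, 46 (60.5%) had at least 1 transcript annotated as a target of nonsense-mediated decay, beside 45.9% of all tested protein-coding genes, and 52 (68.4%) had a transcript annotated with a retained intron, beside 58.7%. All 14 SR genes and all 3 LUC7 genes had an annotated decay target, and 14 of the 20 hnRNP genes tested had one. Of the 36 protein-coding RBM genes tested, 13 (36.1%) had one and 20 (55.6%) had a transcript with a retained intron. Both RBM shares were below those of all tested protein-coding genes.

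Libraries held between 9855734 and 20837542 counts. PRRC2B itself fell from a mean of 281 ± 28.7 to 100.3 ± 2.32 CPM (counts scaled to library size with the TMM factors; SD, n = 3 each) in total RNA, with no overlap between the lines. Replicates of polysome RNA lay farther apart than those of total RNA: a chi-square of the counts divided by its degrees of freedom was between 14.6 and 79.4 for pairs of polysome replicates and between 3.33 and 9.06 for pairs of total RNA replicates. In both lines, polysome replicate 1 was the one farthest from the others. The 5 nuclear RNAs looked at (MALAT1, NEAT1, KCNQ1OT1, XACT and TUG1) summed to 113 to 465 CPM in shCtrl polysome libraries and 41.1 to 51.1 CPM in shPRRC2B ones, and to 499 to 587 CPM against 264 to 294 CPM in total RNA, without overlap in either fraction. On polysomes TUG1 (28.3 to 55.8 CPM against 3.52 to 9.54 CPM) did not overlap, while MALAT1 (15 to 369 CPM against 4.39 to 17.0 CPM) and NEAT1 (23.8 to 68.6 CPM against 26.3 to 29.1 CPM) did. These sums moved with the lower polysome levels given below for many members, and their part in those results was not tested. All 6 markers of HEK293T cells were present, with a sum between 419 and 868 CPM, while the leukocyte, hepatocyte, kidney and fibroblast lists summed to at most 15.9 CPM. The summed HEK293T markers were lower in shPRRC2B cells in total RNA (483 to 512 CPM against 685 to 763 CPM), where NEFM, NEFL and KRT8 were lower and VIM and KRT18 higher without overlap and PAX2 overlapped, and their part in the results was not tested.

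Most mRNAs of these splicing regulators were underrepresented on polysomes of shCtrl cells. The polysome-to-total ratio was below 1 past the thresholds (adjusted p under 0.05 and a log2 value beyond 0.5 or -0.5, by edgeR's quasi-likelihood test, adjusted as Benjamini and Hochberg describe) for 42 of the 77 members and above 1 for 12, where 39.8% and 32.5% of all genes were called in these directions. The median log2 ratio was -1.0 for the members and -0.22 for all genes tested. The ratio is relative to the scaling of the libraries: scaling by total counts moved the median of all genes to -1.22, and then 64 members were called below and 4 above, beside 58.8% and 17.7% of all genes. By family, 14 of 20 hnRNPs, 3 of 3 PTB genes, 3 of 3 LUC7 genes, 18 of 37 RBM genes and 4 of 14 SR genes were below, while 4 SR genes, 7 RBM genes and HNRNPA1 were above. SRSF3 had the highest value of the members (2.18), and HNRNPU, which organises chromatin as well as binding RNA, had one of the lowest (-3.05).

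The change in translation efficiency (TE) compares this ratio between the lines, as the log2 of its value with the PRRC2B shRNA divided by its value with the control shRNA. Between the lines it was negative for most members. Of the 77 tested, 26 (33.8%) were called TE-down and 5 (6.49%) TE-up by the same edgeR test and thresholds, where 16.4% of all genes were TE-down and 10.7% TE-up. The median TE change was -0.24 for the members and -0.03 for all genes tested, and 54 of the 77 values were below 0. For 34 members the 3 ratios of shPRRC2B cells all lay below the 3 of shCtrl cells and for 11 all above, which held for 20.6% and 17.7% of all genes. Leaving out 1 library at a time, between 18 and 34 members were TE-down and between 3 and 7 TE-up, where 12.4% to 19.6% and 6.82% to 13.3% of all genes were. In bulk RNA, fewer cells of a kind and less RNA per cell cannot be told apart, and the same holds for fewer ribosomes per mRNA and fewer mRNAs on polysomes.

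**Figure D1:**
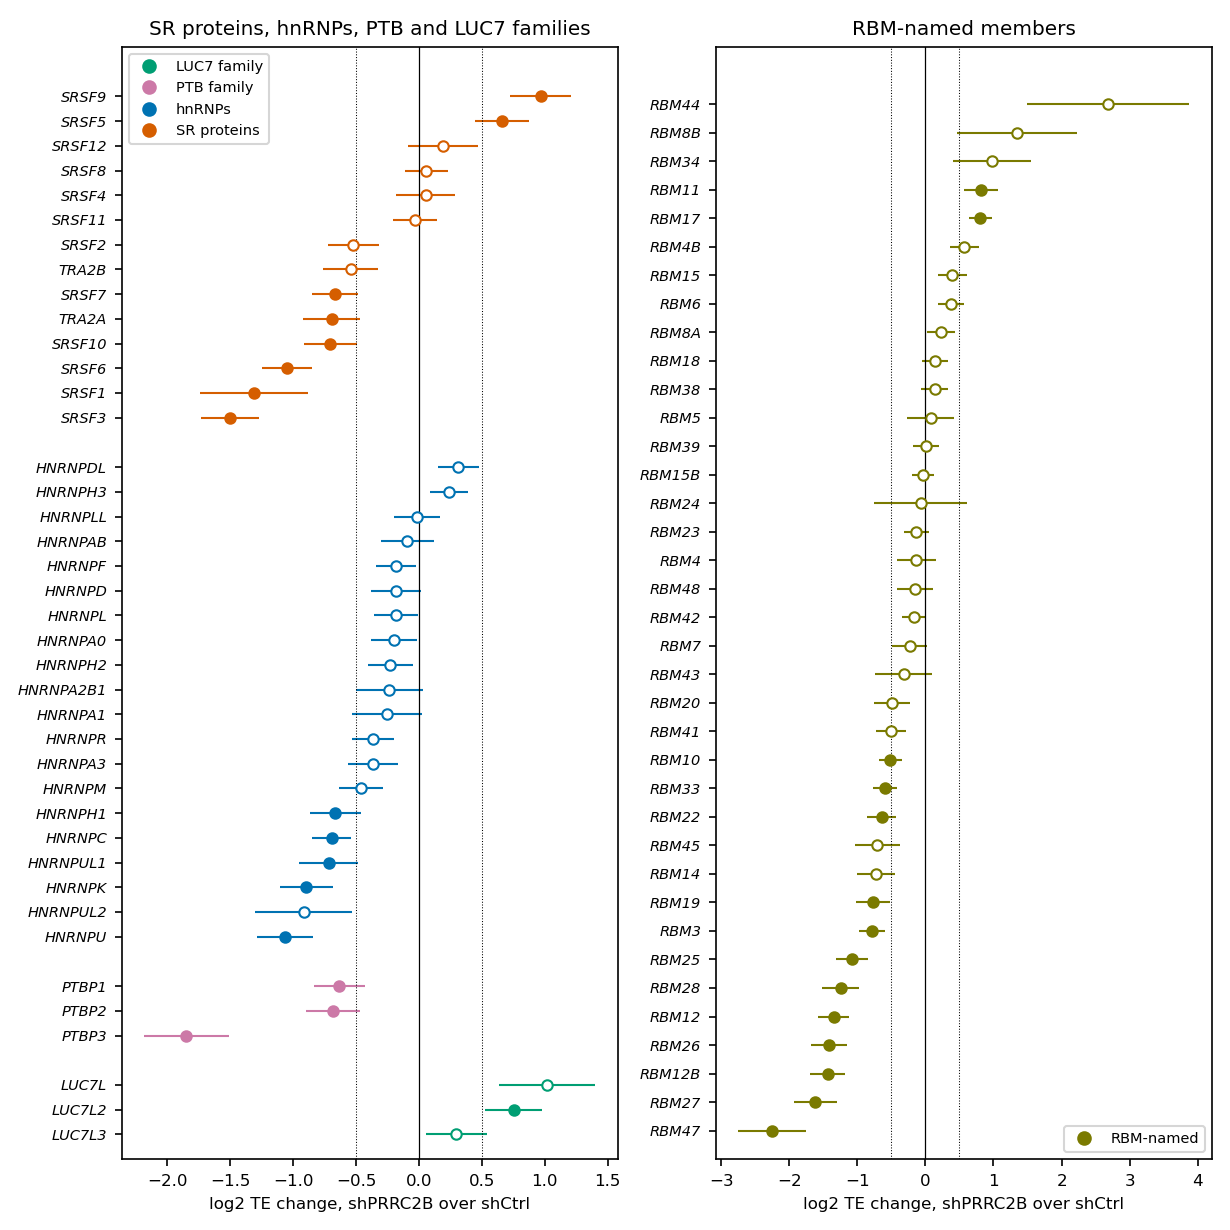
Log2 TE change (x axis, shPRRC2B over shCtrl) of each of the 77 members tested, by family, with SR, hnRNP, PTB and LUC7 genes on the left and RBM genes on the right. Points are edgeR estimates, bars are standard errors, filled points passed the thresholds (dotted lines at -0.5 and 0.5 with adjusted p under 0.05), and 26 filled points lie on the left of 0 and 5 on the right.

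Total RNA moved in both directions. It rose for 12 members and fell for 10, beside 14.9% and 14.1% of all genes, with a median log2 change of -0.04 (0.04 over all genes). Polysome RNA rose for 7 members and fell for 27, beside 18.4% and 21.4% of all genes, with a median of -0.34 (-0.01 over all genes). The 26 TE-down members came about in different ways. In 14 of them polysome RNA was called lower and total RNA was not called, in 5 total RNA was called higher and polysome RNA was not, in RBM27 and RBM47 both held, and in 5 neither was called alone. The first kind held HNRNPC, HNRNPH1, HNRNPK, HNRNPU, HNRNPUL1, PTBP2, PTBP3, TRA2A, RBM12, RBM12B, RBM25, RBM26, RBM28 and RBM33. The second kind held SRSF3, SRSF6, SRSF10, RBM3, the cold-inducible RNA-binding protein, and RBM19, a nucleolar factor of ribosome biogenesis. This sorting depends on the minimum change. Polysome RNA of PTBP1, called in neither fraction, changed by -0.497 and was called lower in 19 of 24 alternatives. That of SRSF3 (-0.487) was called lower in 8. Both were called with no minimum change.

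**Figure D2:**
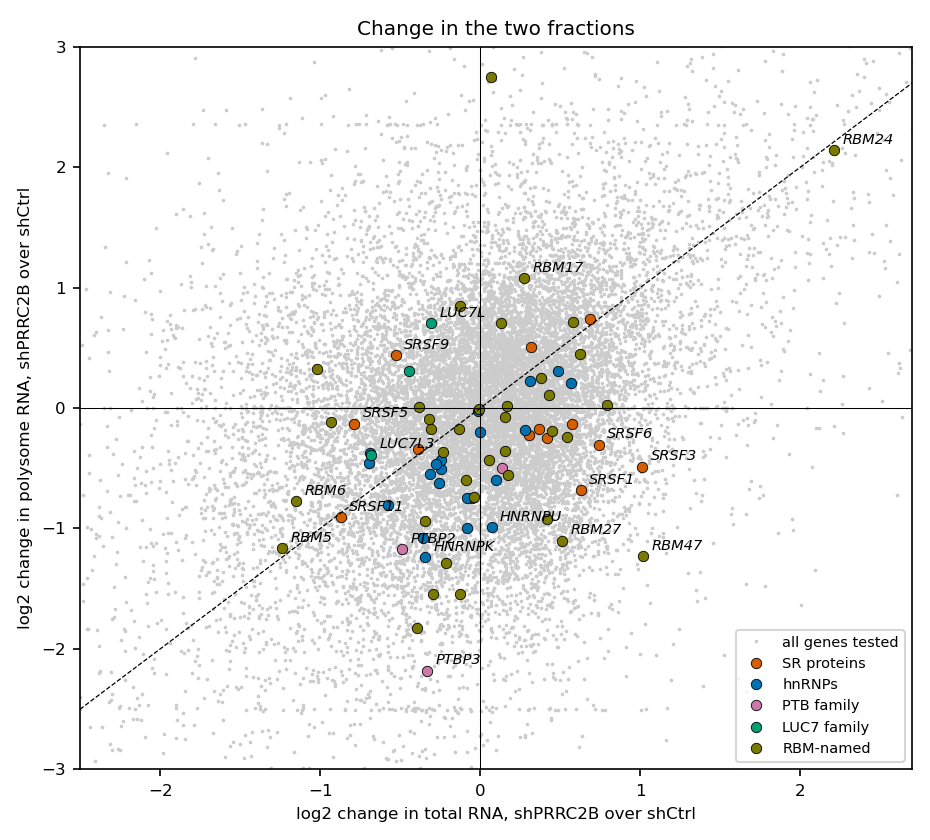
Log2 change of total RNA (x axis) and of polysome RNA (y axis), shPRRC2B over shCtrl, for the 77 members in colour over the other tested genes within the axes in grey. On the dashed line the TE change is 0; points below it have a negative TE change, and SRSF3 (1.01 and -0.49) and PTBP3 (-0.33 and -2.18) lie below it in different places.

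The study located PRRC2B on RNA by PAR-CLIP, in which a crosslinked protein is pulled down with its RNA, using full-length PRRC2B and P2, a fragment that holds its arginine- and glycine-rich stretches. Of the 77 members, 18 had at least 1 such site in either dataset, and 5 were on the study's list of bound mRNAs: HNRNPUL1, HNRNPDL, LUC7L2, PTBP3 and SRSF11. The reference sequence (GRCh38) of the most pyrimidine- or purine-rich 30 bases of the site is shown for these 5. It is also shown for the TE-down members with a site in 1 dataset. The windows lie within the sites, and the crosslinked position was not used to choose them. Sites in 1 dataset of members that were TE-up (SRSF9) or not called (HNRNPA0 among others) are not shown. Capitals mark the longest run of only C and T or only A and G.
PTBP3, exon 14, 3′ UTR, chr9:112222320-112222349, minus strand: ttatttctcatactctgTCCCTCTCTTTTT
SRSF11, exon 8, CDS, chr1:70244775-70244804, plus strand: AGAGAAAGAGGtagaaggtcaaggagcaca
HNRNPUL1, intron of the canonical transcript, chr19:41272223-41272252, plus strand: GAGAGGAtaggaggtgggtgtatgaggcag
HNRNPDL, exon 1, CDS, chr4:82429302-82429331, minus strand: GGAGGAtatgaacgagtacagcaatataga
LUC7L2, outside the canonical transcript, chr7:139340768-139340797, plus strand: gggtggcctgtgacttttgTCCTTTTTTCC
HNRNPC, exon 3, CDS, chr14:21234135-21234164, minus strand: TCCTCgctccatgaactcccgtgtattcat
PTBP1, exon 15, 3′ UTR, chr19:811046-811075, plus strand: ttcccggCCCTCCacacccggggccagacc
RBM25, exon 7, CDS, chr14:73096958-73096987, plus strand: tggatgaagaaacAAAGAGGAGAGAtcaga
RBM33, exon 6, CDS, chr7:155700808-155700837, plus strand: caaagaagaatcagatGAAGAAGAAGAAGA
SRSF3, exon 1, 5′ UTR, chr6:36594398-36594427, plus strand: ggttggtgttgggccGGAGGAAAGcgggaa
Both kinds of sequence occurred. The PTBP3 window held 26 pyrimidines and its longest run was 13 bases, while the RBM33 window held 26 purines with a run of 14. The windows were chosen as the richest of each site, so their composition is a description and not a test. Of the 18 members with a site, 7 were TE-down and 2 TE-up (median -0.36), and of the 59 without one, 19 were TE-down and 3 TE-up (median -0.24). Of all genes tested, 16.4% were TE-down and 10.7% TE-up. On the bound list of 5, PTBP3 and HNRNPUL1 were TE-down, LUC7L2 was TE-up, and HNRNPDL and SRSF11 were not called. PTBP1, whose site was found with full-length PRRC2B only, is counted by the study among its unbound TE-down mRNAs. At earlier times after Dox, the study did not see PTBP1 move to lighter gradient fractions as its tested bound TE-down mRNAs did.

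Among the SR proteins, 6 of 14 were TE-down and 2 TE-up, beside 16.4% and 10.7% of all genes, with a median TE change of -0.53. SRSF3, the smallest SR protein and also an mRNA export adaptor (chromosome 6, 36594353 to 36605600, plus strand), had the most negative value. Its total RNA was 147, 135 and 139.8 CPM in shCtrl replicates 1, 2 and 3 and 295, 288 and 269 CPM in shPRRC2B cells. All the shPRRC2B values were higher (over all genes tested, total RNA of the lines did not overlap with shPRRC2B higher for 34.1% and lower for 28.8%, and polysome RNA for 21.6% and 21.5%), and the means were 141 ± 6.12 and 284 ± 13.3 CPM (SD, n = 3). Its polysome RNA was 529, 696 and 686 CPM in shCtrl cells and 588, 415 and 360.4 CPM in shPRRC2B cells, where shPRRC2B replicate 1 overlapped the control values. SRSF3 thus was 1 of the mRNAs with more total RNA and no called change on polysomes: total RNA rose by 1.01 (standard error 0.16, adjusted p = 0.000162, edgeR), polysome RNA differed by -0.49, and TE fell (-1.50, standard error 0.23, adjusted p = 0.000202, edgeR). Its site in the 5′ UTR, shown above, was found with full-length PRRC2B only.

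SRSF6 and SRSF10 showed the same order of values. For SRSF6, which binds purine-rich enhancers, total RNA was 66.9, 54.8 and 69.6 CPM in shCtrl and 113, 108 and 98.5 CPM in shPRRC2B cells, and the lines did not overlap. Polysome RNA of SRSF6 was 83.8, 86.3 and 74.5 CPM and 80.1, 57.5 and 60.4 CPM, where they did. Its TE change was -1.05 (standard error 0.20, adjusted p = 0.00109, edgeR's quasi-likelihood test). SRSF10, a splicing repressor that is activated by dephosphorylation, had 123, 124 and 142 CPM and 188, 197 and 193 CPM in total RNA, again apart. On polysomes SRSF10 had 107, 153 and 129.9 CPM and 138, 121 and 95.2 CPM, with overlap, and its TE change was -0.71 (adjusted p = 0.0193, edgeR). That call was lost without shCtrl total replicate 1 or 2 (adjusted p = 0.055 and 0.0519, edgeR), and the value was -0.05 with the trend on transcript length removed.

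SRSF7 and SRSF1 were TE-down with neither fraction called alone in the fit of all 12 libraries. SRSF7, like SRSF3 a shuttling protein, had polysome-to-total ratios of 2.05, 3.10 and 2.55 in shCtrl cells and 1.79, 1.53 and 1.48 in shPRRC2B cells, all lower, and a TE change of -0.67 (adjusted p = 0.0126, edgeR). SRSF1, the founding member of the family, had ratios of 0.398, 0.592 and 0.446 and 0.284, 0.213 and 0.0662, and a TE change of -1.31 with a wide standard error of 0.43 (adjusted p = 0.0295, edgeR). Total RNA of SRSF1 was higher in each shPRRC2B library but not called (0.63). It was called in 3 of 24 alternatives, among them the 6 total RNA libraries alone (0.59, adjusted p = 6.74e-06, edgeR). Other genes share 35.1% of the annotated exon bases of SRSF1. The third shPRRC2B polysome value of SRSF1 (37.3, 30.2 and 8.37 CPM in replicates 1, 2 and 3) was far below the others. The SRSF1 call was lost with DESeq2 (adjusted p = 0.0834), and with edgeR (adjusted p between 0.0523 and 0.0761) when shCtrl polysome replicate 2, shCtrl total replicate 1 or 2, or shPRRC2B total replicate 1 or 2 was left out. TRA2A, an SR-like activator of exon inclusion, was the 1 TE-down SR gene with lower polysome RNA alone: 55.4, 62.3 and 76.2 CPM in shCtrl and 48.5, 37.1 and 29.7 CPM in shPRRC2B cells, without overlap, for a polysome change of -0.75 and a TE change of -0.70 (adjusted p = 0.0285, edgeR). Its TE call was lost without shCtrl polysome replicate 3, shCtrl total replicate 1 or 2, shPRRC2B polysome replicate 2 or 3, or shPRRC2B total replicate 1 or 2, with values between -0.72 and -0.57. Its partner TRA2B (-0.54, adjusted p = 0.0759, edgeR) and SRSF2 (-0.52, adjusted p = 0.064, edgeR) had values of similar size that did not pass. TRA2B was past the thresholds without shPRRC2B polysome replicate 1 (-0.83) or shCtrl polysome replicate 1 (-0.65), and SRSF2 without shPRRC2B polysome replicate 1 (-0.73) or shCtrl polysome replicate 2 or 3 (-0.65 and -0.64).

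The number of SR genes with lower polysome RNA varied with the libraries used. With all libraries, it fell for SRSF11 and TRA2A only. Without shPRRC2B polysome replicate 1 it was called lower for 7 of the 14, among them SRSF3 (-0.83), SRSF6 (-0.58) and SRSF1 (-1.19), beside 23.9% of all genes in that fit. SRSF3 and SRSF1 joined the pair without shCtrl polysome replicate 1 (-0.69 and -0.88), SRSF3 and SRSF4 without shCtrl polysome replicate 2 (-0.51 and -0.64), and SRSF3 without shCtrl polysome replicate 3 (-0.53). The number of TE-down SR genes was 8 without shPRRC2B polysome replicate 1 (18.8% of all genes were then TE-down) and 3 without shCtrl total replicate 1 or 2 (12.5% and 12.6%).

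The rises were in SRSF9 and SRSF5, the SR genes with the highest level per kilobase of transcript in total RNA of shCtrl cells (159.6 and 139 CPM per kilobase, with a median of 37.2 for the 14). SRSF9 total RNA was 169, 224 and 159 CPM in shCtrl and 134, 130.3 and 118 CPM in shPRRC2B cells, and its polysome RNA was 751, 579 and 443 CPM and 753, 848 and 803 CPM. Its ratios were 4.45, 2.59 and 2.79 against 5.6, 6.51 and 6.83, all higher in shPRRC2B cells, and its TE change was 0.97 (standard error 0.24, adjusted p = 0.00704, edgeR). Total RNA of SRSF9 fell (-0.53), a call lost without shCtrl total replicate 2 (-0.36) or any shPRRC2B total replicate. Of its annotated exon bases, 46.7% also belong to GATC or NRAV, so reads there cannot be assigned with certainty. SRSF5, whose RNA is known to respond quickly to cell signals, had 229.7, 190.2 and 204 CPM and 105, 113 and 144 CPM in total RNA, all lower in shPRRC2B cells, and 171, 129 and 140.2 CPM and 149.7, 112 and 140.4 CPM on polysomes, which overlapped. Its total RNA fell (-0.79, adjusted p = 0.00077, edgeR) and its TE rose (0.66, adjusted p = 0.0308, edgeR). The SRSF5 TE call was lost when any 1 of 8 libraries was left out, namely shCtrl polysome replicate 2 or 3, shCtrl total replicate 1 or 3, shPRRC2B polysome replicate 1 or 3, or shPRRC2B total replicate 1 or 2 (0.51 to 0.67).

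**Figure D3:**
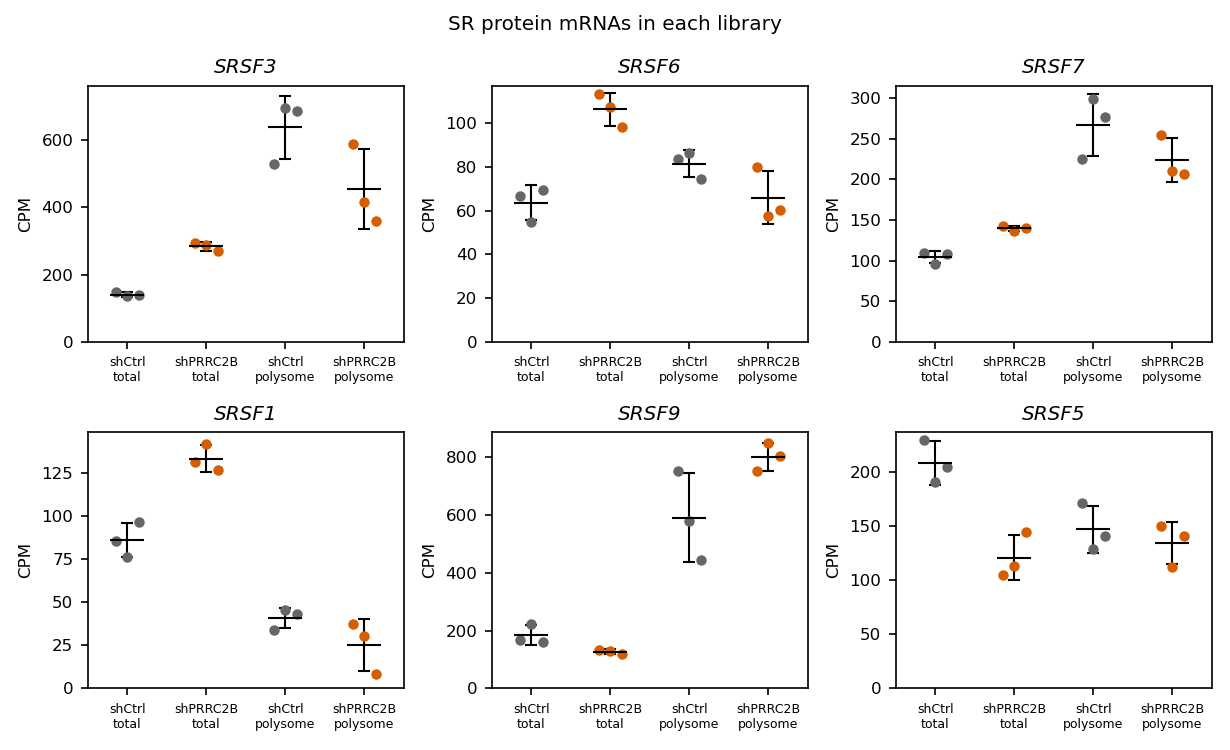
CPM (TMM-scaled, y axis from 0) of 6 SR mRNAs in each of the 12 libraries, by line and fraction. Points are libraries in the order of replicates 1 to 3, horizontal lines are means and bars are SD (n = 3); total RNA of SRSF3, SRSF6, SRSF7 and SRSF1 is higher in each shPRRC2B library than in any shCtrl library, and that of SRSF9 and SRSF5 is lower.

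The other SR genes kept their TE within the thresholds. For SRSF11 and SRSF8 the fractions moved together. SRSF11, a spliceosome-associated SR protein on the bound list, had 354, 315 and 395 CPM in total RNA of shCtrl cells and 182, 192 and 207 CPM in shPRRC2B cells. On polysomes SRSF11 had 99.1, 92.2 and 92.8 CPM and 56.0, 44.5 and 51.2 CPM, and neither fraction overlapped. Both fell, by 0.87 and 0.91 on the log2 scale, so the TE change was -0.03 (adjusted p = 0.929, edgeR), with a sign that varied with the setting. SRSF8, a gene of a single exon, rose in both: 33.6, 36.9 and 41.8 CPM to 61.5, 62.8 and 56.0 CPM in total RNA and 49.5, 51.8 and 49.2 CPM to 89.4, 75.9 and 86.6 CPM on polysomes, for changes of 0.69 and 0.74. The TE changes of SRSF4 (0.05), SRSF8 (0.06) and SRSF12 (0.19) were within about 1 standard error of 0. SRSF12, the SR gene with the lowest level per kilobase (4.12), had polysome RNA of 33.9, 25.1 and 15.8 CPM in shCtrl and 34.9, 35.2 and 36.4 CPM in shPRRC2B cells. The latter values were all higher (0.51, adjusted p = 0.0452, edgeR), a call that held only without shCtrl polysome replicate 1 among the 12 fits that left out a library (0.16 to 0.50 without each of the others).

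Of the 20 hnRNP genes tested, 5 were TE-down and 0 TE-up, beside 16.4% and 10.7% of all genes, with a median of -0.24. At an unadjusted p under 0.05 in edgeR, 0 had a higher TE, and DESeq2 and limma called 0. Polysome RNA fell for 10 of them and rose for 0 (1 at an unadjusted p under 0.05 in edgeR, HNRNPF, and 0 by DESeq2 or limma). It fell for 21.4% and rose for 18.4% of all genes. The hnRNP with the most negative TE change was HNRNPU (chromosome 1, 244840638 to 244864560, minus strand). In total RNA it had 1016, 1044 and 1051 CPM in shCtrl and 1127, 1115 and 1028 CPM in shPRRC2B cells, which overlapped. Its polysome RNA was 135, 118 and 121 CPM and 82.5, 56.2 and 49.5 CPM, all lower in shPRRC2B cells. TE fell (-1.06, standard error 0.22, adjusted p = 0.00213, edgeR), and the value was -0.47 and not past the threshold once the length trend was taken out.

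HNRNPK, which binds C-rich RNA, and HNRNPC, which binds uridine tracts and holds mRNA in the nucleus, were TE-down in each of the 24 alternatives tried. For HNRNPK polysome RNA was 242, 312 and 300.5 CPM in shCtrl and 141, 129 and 91.5 CPM in shPRRC2B cells. Its total RNA was 716, 724 and 727 CPM and 582, 583 and 539 CPM, so both fractions were lower without overlap, and the larger difference was on polysomes (-1.24 against -0.35). The TE change was -0.89 (adjusted p = 0.00497, edgeR). HNRNPC had close replicates, with polysome RNA of 621, 642 and 637 CPM and 443, 399 and 416 CPM, total RNA of 568 ± 18.9 and 609 ± 10.2 CPM (SD, n = 3), and a change in TE of -0.70 ± 0.16 (standard error; adjusted p = 0.00373, edgeR). HNRNPH1, which binds G runs, had polysome RNA of 203, 254 and 296 CPM and 171, 149 and 128 CPM, apart, and a TE change of -0.67 (adjusted p = 0.0219, edgeR). Its call was lost without shCtrl total replicate 2 (adjusted p = 0.0567, edgeR) or shPRRC2B total replicate 2 (adjusted p = 0.0505, edgeR).

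Of the hnRNP genes on the bound list, HNRNPUL1 had 143, 156 and 157 CPM on polysomes of shCtrl cells and 91.9, 74.3 and 49.5 CPM in shPRRC2B cells, all lower. In total RNA it had 375, 419.8 and 352 CPM and 306, 307 and 280.0 CPM, also apart but not called (-0.36). Its TE change was -0.72 (adjusted p = 0.0307, edgeR), lost without shCtrl total replicate 1 or 3 or shPRRC2B total replicate 1 or 2 (adjusted p between 0.0654 and 0.0748, edgeR). HNRNPDL, a close relative of HNRNPD, changed in total RNA, which fell from 405 ± 13.5 to 251 ± 7.49 CPM (SD, n = 3; -0.69, adjusted p = 0.000208, edgeR), polysome RNA differed by -0.38, and the TE change of 0.31 was not called (adjusted p = 0.162, edgeR). HNRNPH3 and HNRNPH2 also had lower total RNA (-0.70 and -0.58), and HNRNPR had more (0.57). The hnRNPs most abundant per kilobase, HNRNPA1 (436 CPM per kilobase) and HNRNPA2B1 (334), had TE changes of -0.25 and -0.24 that did not pass. HNRNPA1 polysome RNA ranged widely, with 3402, 2264 and 2924 CPM in shCtrl and 1315, 2569.9 and 2178 CPM in shPRRC2B cells. Its 75 processed pseudogenes held between 3.31% (95% Wilson interval 3.11% to 3.53%) and 4.75% (4.55% to 4.97%) of the counts of HNRNPA1 and its pseudogenes together in a library, where the intervals cover counting error only.

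The PTB genes were all TE-down (3 of 3), beside 16.4% of all genes. PTBP3 (chromosome 9, 112217716 to 112333664, minus strand), the paralog expressed in blood-forming and other cells, carries the pyrimidine-rich 3′ UTR site shown above. Its polysome RNA was 20.7, 28.1 and 32.6 CPM in shCtrl cells and 8.34, 6.78 and 2.66 CPM in shPRRC2B cells, well apart. Its total RNA was 65.9, 64.6 and 71.9 CPM and 55.7, 50.8 and 54.3 CPM, a smaller difference (-0.33, adjusted p = 0.248, edgeR). Polysome RNA fell (-2.18) and TE fell (-1.85, standard error 0.34, adjusted p = 0.000752, edgeR), a call kept in all alternatives, with -1.23 when the length trend was removed.

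PTBP2, the neuronal paralog that PTBP1 represses, had 25.0, 19.6 and 20.2 CPM on polysomes of shCtrl cells and 9.46, 8.60 and 10.7 CPM in shPRRC2B cells. In total RNA PTBP2 had 36.8, 36 and 32.7 CPM and 22.5, 24.1 and 28.6 CPM. Both were lower without overlap, the polysome value more so, and the TE change was -0.68 (adjusted p = 0.0265, edgeR). It was not past the threshold without shCtrl total replicate 2 or 3, shPRRC2B polysome replicate 2 or shPRRC2B total replicate 3 (adjusted p between 0.054 and 0.0834, edgeR). PTBP1, the most abundant of the 3 per kilobase (178 CPM against 10.6 and 9.38), had ratios of 0.242, 0.230 and 0.282 in shCtrl and 0.195, 0.134 and 0.152 in shPRRC2B cells, all lower. Its TE change of -0.63 (adjusted p = 0.0265, edgeR) was lost in 6 of the 12 fits that left out a library, those without shCtrl total replicate 1 or 3, shPRRC2B polysome replicate 2 or 3, or shPRRC2B total replicate 1 or 2 (adjusted p between 0.0604 and 0.0675). The number of TE-down PTB genes was 1 without shCtrl total replicate 3 or shPRRC2B polysome replicate 2, and likewise 1 after removal of the length trend.

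For the LUC7 genes the TE changes were all above 0, with a median of 0.75, and 1 of 3 was called TE-up, beside 10.7% of all genes. In total RNA all 3 were lower in shPRRC2B cells without overlap, as were 28.8% of all genes. LUC7L2 (chromosome 7, 139340359 to 139423457, plus strand) had 88.1, 96.5 and 88.1 CPM in total RNA of shCtrl and 69.9, 67.3 and 63.1 CPM of shPRRC2B cells. Its polysome RNA was 39.8, 35.4 and 22.5 CPM and 41.4, 42.6 and 37.0 CPM, which overlapped. The ratios were 0.452, 0.367 and 0.256 against 0.593, 0.633 and 0.586, all higher in shPRRC2B cells, and the TE change was 0.75 (standard error 0.22, adjusted p = 0.0197, edgeR). The call was lost without shCtrl polysome replicate 3 (0.49), shCtrl total replicate 2 (0.70), shPRRC2B polysome replicate 2 (0.68) or shPRRC2B total replicate 3 (0.70). Its exons share 23.8% of their bases with other annotated genes, FMC1 and a read-through transcript among them, and its PAR-CLIP site lies outside the canonical transcript.

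LUC7L had the higher estimate and a wider error (1.02, standard error 0.38, adjusted p = 0.0577, edgeR). Its polysome RNA was 50.6, 16.7 and 19.6 CPM in shCtrl cells, where replicate 1 stood apart, and 42.8, 46.4 and 53.7 CPM in shPRRC2B cells, for a change of 0.71 whose call was lost without any 1 of the 11 libraries other than shCtrl polysome replicate 1 (0.32 to 0.70). Without shCtrl polysome replicate 1 the TE change was 1.66 (adjusted p = 7.85e-06, edgeR). LUC7L3, which has a long serine- and arginine-rich tail, had the lowest polysome share of the 3, with ratios of 0.169, 0.122 and 0.154 and 0.256, 0.179 and 0.132, which overlapped. Its total RNA fell from 318 ± 25.1 to 198 ± 24.4 CPM (SD, n = 3; -0.68, adjusted p = 0.00475, edgeR), polysome RNA differed by -0.39, and the TE change was 0.30 (adjusted p = 0.393, edgeR). With the length trend removed it was 0.91 and past the threshold.

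**Figure D4:**
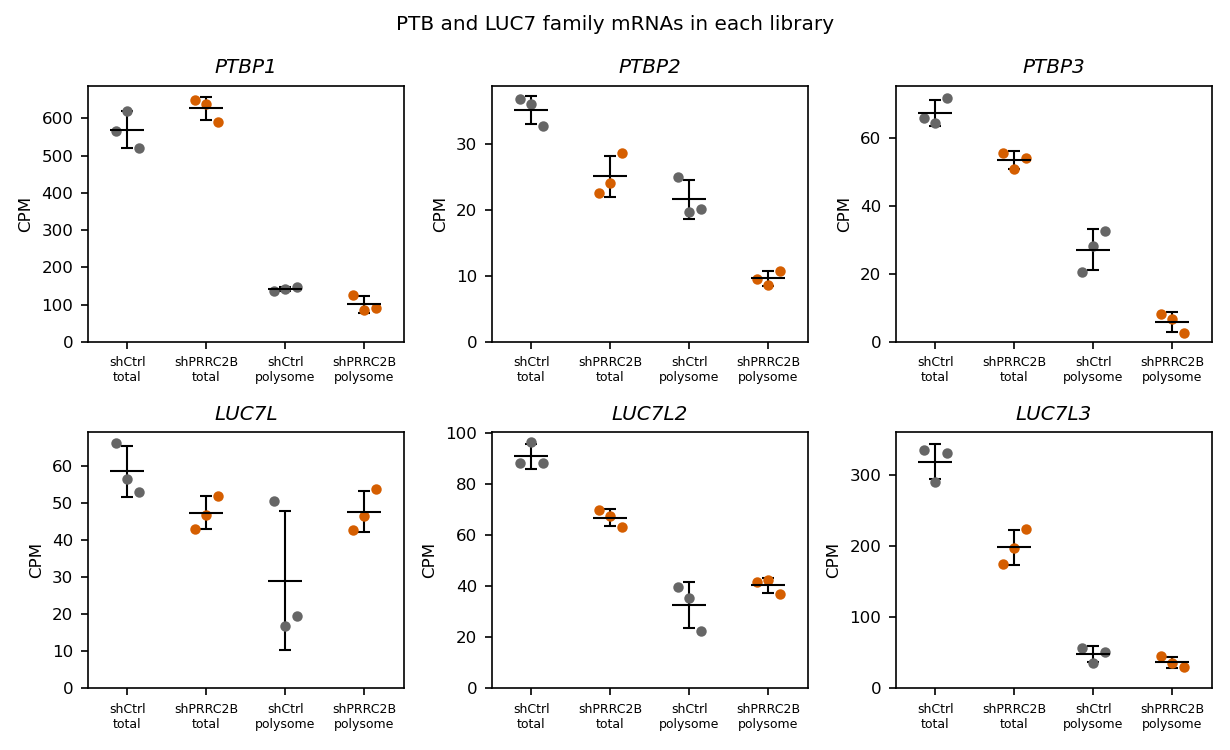
CPM (TMM-scaled, y axis from 0) of the PTB genes and the LUC7 genes in each of the 12 libraries, by line and fraction. Points are libraries in the order of replicates 1 to 3, horizontal lines are means and bars are SD (n = 3); polysome RNA of PTBP1, PTBP2 and PTBP3 is lower in each shPRRC2B library than in any shCtrl library, and total RNA of the LUC7 genes is lower.

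Of the 37 genes named RBM that were tested, 12 were TE-down and 2 TE-up, beside 16.4% and 10.7% of all genes, with a median of -0.17. The RBM genes share an RNA recognition motif and a naming scheme, not a pathway. RBM26 and RBM27, related proteins that link polyadenylated nuclear RNA to the exosome, both fell in TE. RBM26 had 51.7, 27.1 and 30.7 CPM on polysomes of shCtrl cells and 15.3, 11.7 and 10.6 CPM in shPRRC2B cells, with total RNA of 192 ± 8.35 and 176 ± 4.47 CPM (SD, n = 3). Its lines did not overlap on polysomes, and TE fell by 1.42 (adjusted p = 0.00103, edgeR). RBM27 had 8.15, 6.73 and 4.10 CPM and 3.78, 3.06 and 2.00 CPM on polysomes and 21.5, 19.9 and 19.6 CPM and 28.6, 29.3 and 29.3 CPM in total RNA. Both fractions were apart and in opposite directions, with a TE change of -1.62 (adjusted p = 0.00135, edgeR). An unnamed gene shares 44.8% of the exon bases of RBM27.

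RBM12 and RBM12B, which are paralogs, were both TE-down. RBM12 polysome RNA was 26.8, 30.6 and 25.8 CPM in shCtrl and 19.2, 12 and 12.5 CPM in shPRRC2B cells, and its TE change was -1.35 (adjusted p = 0.000417, edgeR). RBM12B, with 46.6% of its exon bases in other genes, had 9.65, 6.18 and 7.65 CPM and 2.41, 2.39 and 1.81 CPM and a TE change of -1.44 (adjusted p = 0.000642, edgeR). Neither gene overlapped between the lines on polysomes. RBM25, a U1-associated regulator of 5′ splice site choice, had 28.5, 21.5 and 34.9 CPM and 13.8, 11.7 and 9.23 CPM on polysomes, apart, and a TE change of -1.08 (adjusted p = 0.00298, edgeR). RBM28 had 21.7, 13.3 and 18.3 CPM and 8.43, 4.97 and 4.85 CPM, apart, and a TE change of -1.25 (adjusted p = 0.00266, edgeR). With the length trend removed, RBM25 (-0.48) and RBM28 (-0.35), whose canonical transcript is 15507 nt long, were not past the thresholds, while RBM12 (-0.77), RBM26 (-0.97) and RBM27 (-1.05) were.

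RBM47, a cofactor of C-to-U RNA editing, had the most negative TE change of all members (-2.25, standard error 0.50, adjusted p = 0.00316, edgeR), at a low level. Its total RNA was 7.58, 6.50 and 9.67 CPM in shCtrl and 15.4, 15.8 and 16.7 CPM in shPRRC2B cells, apart. Its polysome RNA was 3.28, 1.63 and 4.33 CPM and 2.24, 1.05 and 0.571 CPM, with overlap.

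RBM17 and RBM11 were TE-up. RBM17, which helps to define 3′ splice sites, had 132, 112 and 101 CPM on polysomes of shCtrl cells and 263, 233 and 236 CPM in shPRRC2B cells, all higher. In total RNA RBM17 had 83.6 ± 4.67 and 101 ± 0.859 CPM (SD, n = 3), and it was the 1 TE-up member whose polysome RNA was called higher (1.08). Its TE change was 0.80 (standard error 0.17, adjusted p = 0.00216, edgeR), kept in each alternative. RBM11 had 8.04, 8.0 and 8.71 CPM in total RNA of shCtrl and 4.15, 3.97 and 4.81 CPM of shPRRC2B cells, all lower, and 17.5, 21.2 and 23.1 CPM and 22.6, 15.5 and 18.6 CPM on polysomes, with overlap. Its TE change of 0.81 (adjusted p = 0.0246, edgeR) was lost without shCtrl total replicate 1 or 3, shPRRC2B polysome replicate 1 or 3, or shPRRC2B total replicate 1 or 2 (0.60 to 0.83).

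Several RBM genes moved in total RNA with no TE call. RBM5 and RBM6, neighbouring regulators of apoptosis-related splicing, fell in total RNA (-1.24 and -1.15) and on polysomes (-1.16 and -0.77), with TE changes of 0.08 and 0.38. RBM5 had 134, 124 and 129 CPM in total RNA of shCtrl cells and 52.6, 53.0 and 58.1 CPM in shPRRC2B cells, and RBM6 had 115, 103 and 105 CPM and 47.6, 46.5 and 51.4 CPM, so neither overlapped. Their relative RBM10 was TE-down with a value just past the threshold (-0.51, adjusted p = 0.0299, edgeR), a call not kept with every library left out in turn. RBM24, a muscle splicing factor, rose in both fractions (2.21 and 2.14) from a mean of 0.549 to 2.48 CPM in total RNA. RBM39, a partner of U2AF, lay at 0 in each comparison (0.01 in TE), with 216 ± 5.95 and 214 ± 7.79 CPM in total RNA (SD, n = 3). RBM5, RBM6, RBM10, RBM24 and RBM39 were named after their values were seen. The highest estimate of all members, 2.68 for RBM44, rests on polysome values of 0, 0.109 and 0 CPM in shCtrl cells and did not pass (adjusted p = 0.106, edgeR).

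Genes that act with these proteins were counted from lists of symbols, drawn up with earlier results of these data known. Of 9 SR protein kinases and import factors tested, 3 were TE-down and 1 TE-up (median 0.13). DYRK1A and SRPK2, kinases of SR proteins, were among those that fell (-1.70 and -1.21). The others called, TNPO3, the import receptor (-1.02), and SRPK3 (TE-up at a mean of 3.73 CPM over the libraries), and UPF2 of the next list (-0.98) were named after their values were seen. Of 10 genes of nonsense-mediated decay, 3 were TE-down and 1 TE-up (median -0.28), with SMG1 (-1.12) lower and UPF3A (1.08) higher. Of 7 genes of the U1 snRNP and its partners, 2 were TE-down and 0 TE-up (median -0.27), SNRPA (-1.18) among them; 0 were higher at an unadjusted p under 0.05 in edgeR, and DESeq2 and limma called 0. Of 41 other splicing regulators tested, 21 were TE-down and 0 TE-up, with a median of -0.76, led by QKI (-1.98) and CELF1 (-1.83), both regulators of muscle and brain splicing. RNPS1 was the 1 with a higher TE at an unadjusted p under 0.05 in edgeR, and DESeq2 and limma called 0 TE-up. These counts stand beside the 16.4% TE-down and 10.7% TE-up of all genes. With the length trend removed, DYRK1A (-0.80) and SMG1 (-0.21) were not past the thresholds. SRPK2 (-0.98), UPF3A (1.01), SNRPA (-1.48), QKI (-1.24) and CELF1 (-1.14) were.

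Transcript length moved with the TE change. Over the 77 members, Spearman's rho between the length of the canonical transcript and the log2 TE change was -0.44 (Pearson's r -0.48), and rho was -0.41 over the 15762 tested genes with a length; these are correlations across genes, which share the 12 libraries. TE-down members had a median length of 4325.5 nt and TE-up members of 1955 nt. Among the 23 members of at least 5000 nt, 12 were TE-down and 0 TE-up by edgeR, with a median of -0.73. At an unadjusted p under 0.05 in edgeR, 0 had a higher TE, and DESeq2 and limma called 0. Of all genes of that length, 39.8% were TE-down and 3.83% TE-up (median -0.63). Of the 32 members from 2500 to 5000 nt, 10 were TE-down and 2 TE-up (median -0.18). Of all genes of that length, 19.6% were TE-down and 7.05% TE-up (median -0.18). Below 2500 nt, 4 of 22 members were TE-down and 3 TE-up (median -0.11). Over all genes of that length, 4.25% were TE-down and 17.0% TE-up, with a median of 0.29. With the trend on length removed from each library, 16 members were TE-down, of which 14 were TE-down before, and 11 were TE-up, of which 3 were before, beside 10.8% TE-down and 10.9% TE-up of all genes in that fit. HNRNPM and SRSF2 were newly TE-down, and HNRNPA0, HNRNPDL, LUC7L3, RBM15B, RBM18, RBM23, RBM6 and RBM8A newly TE-up. Lost were the TE-down calls of HNRNPU, HNRNPUL1, PTBP1, PTBP2, RBM3, RBM10, RBM19, RBM25, RBM28, RBM33, SRSF1 and SRSF10. The TE-up calls of RBM11 and SRSF5 were lost too.

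**Figure D5:**
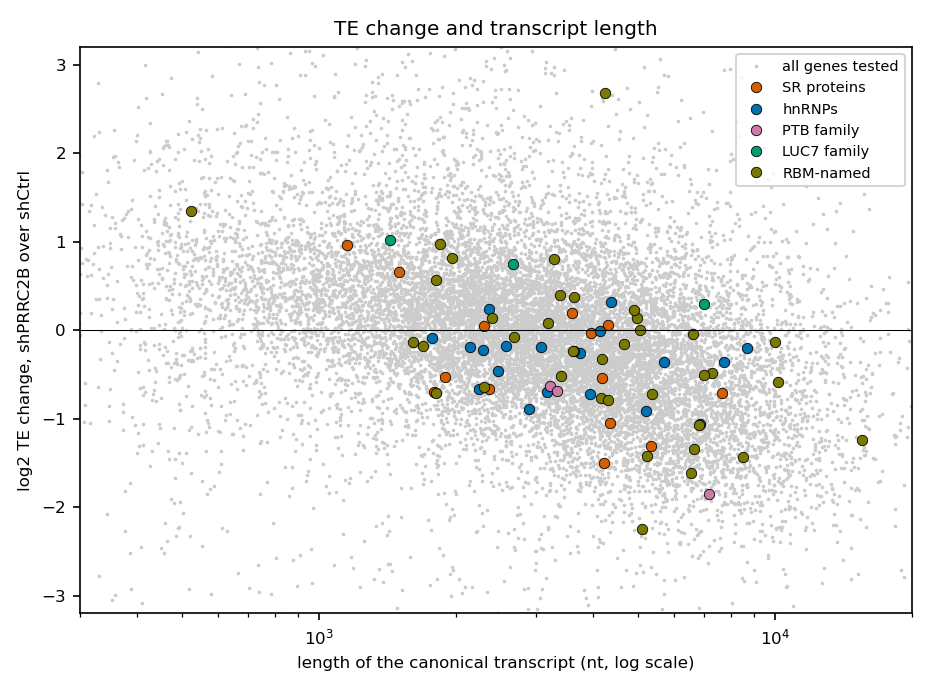
Log2 TE change (y axis, shPRRC2B over shCtrl) against the length of the canonical transcript (x axis, nt, log scale) for the 77 members in colour and the other tested genes within the axes in grey. The members spread along the falling trend of all genes (Spearman's rho -0.44 and -0.41), with the 12 TE-down members of at least 5000 nt at the lower right.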

How the data were processed

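The authors deposited a single table of unnormalised counts (read pairs for each gene name). According to the methods and the submitters' processing notes, Trimmomatic 0.36 trimmed the reads, HISAT2 aligned them to GRCh38, and featureCounts (Subread 2.0.1) counted them on GENCODE names. No strand option is given, so overlapping and antisense genes cannot be told apart. All values were checked to be whole, and 0 columns belonged to no sample.

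Counts were fitted with edgeR 4.0.16 in R 4.3.3 (filterByExpr with a minimum count of 10, TMM over 12 libraries, glmQLFit and glmQLFTest on the 4 groups, no block), with Benjamini-Hochberg adjustment across the 18166 genes that passed. Calls required a log2 change beyond 0.5 or -0.5 as well as an adjusted p under 0.05. CPM are TMM-scaled, and polysome-to-total ratios per replicate take the libraries of the same number, for display and for the counts of ratios that do not overlap. The fit was tested on simulated data.

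Always named were the SR, PTB and LUC7 genes, members on the PRRC2B-bound list and members with total and polysome RNA called in opposite directions. Of the hnRNP and RBM genes, those called in TE with at least 10 CPM and non-overlapping ratios were named, at most 6 in each direction, and of each related list at most 2 in each direction. Others were chosen after their values were seen. Some genes of the related lists are not reported here by name. The members and lists were chosen with earlier results of these data known. Annotation came from GENCODE 44, which is not the release counted on. Alternatives were DESeq2 1.42.0, limma 3.58.1 on log2(CPM + 1), other scalings and filters, a replicate block, a lowess correction for transcript length (span 0.3), no minimum change, 6 libraries alone, each library left out, and members with over 20% shared exon bases left out of the counts, the last added after the data were seen.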

Additional observations from a re-analysis of the deposited data

Results flagged for a closer look

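RBM27 and RBM47 drew attention because total and polysome RNA passed the thresholds in opposite directions between the lines, with TE as the test of the difference. For RBM27, total RNA rose (0.51) and polysome RNA fell (-1.10), for a TE change of -1.62 (adjusted p = 0.00135, edgeR). Its total RNA was higher in 3 of 3 shPRRC2B libraries, but the value lay close to the minimum change and the call was lost in 20 alternatives (0.35 to 0.55), among them the fits without each of the 12 libraries. For RBM47, total RNA rose (1.02) and polysome RNA fell (-1.23), for a TE change of -2.25 (adjusted p = 0.00316, edgeR). The total RNA call was lost without shCtrl total replicate 1 (0.99, adjusted p = 0.0517, edgeR) or 2 (0.89, adjusted p = 0.0677, edgeR), and the polysome RNA call without shCtrl polysome replicate 3 (-1.03) or shPRRC2B polysome replicate 2 or 3 (-1.17 and -0.97), among others. Groups of 3 libraries were too small for the search for outlying samples.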

How the results depend on the processing

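Of the 26 TE-down members, 9 kept the call in every alternative and 15 with each library left out; of the 5 TE-up members, 2 did so in both. Removing the trend on transcript length gave 16 TE-down and 11 TE-up members (15 and 10 with the replicate block as well). Leaving out members with over 20% shared exon bases gave 3 TE-up. For the ratio in shCtrl cells, TMM within each fraction gave 64 below and 4 above, beside 58.8% and 17.6% of all genes. Scaling by total counts gave likewise 64 and 4, beside 58.8% and 17.7%. Removing the length trend gave 21 above (21 with the block as well), beside 30.9% (30.2%) of all genes. With each library left out in turn, TE-down members numbered 18 to 34, TE-up 3 to 7, polysome RNA 25 to 36 lower and 4 to 8 higher, total RNA 9 to 11 lower and 10 to 12 higher, and the ratio 41 to 43 below and 11 to 14 above. Of all genes in those fits, polysome RNA was lower for 20.1% to 24.5% and higher for 13.2% to 17.7%. Total RNA was lower for 10.2% to 16.8% and higher for 11.2% to 13.8%. The ratio was below for 37.4% to 40% and above for 30.4% to 31.6%. TE-up numbered 3 in the fits that lacked replicate 1 or 3 of shCtrl total RNA, replicate 3 of shCtrl polysome RNA, replicate 1 or 2 of shPRRC2B total RNA or replicate 1 of shPRRC2B polysome RNA, and polysome RNA was higher in 4 without shPRRC2B polysome replicate 1. The cause was not tested.

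The sign of some values that were not called turned. The TE change of SRSF11 was 0.0264 with scaling by total counts, 0.0357 with TMM within each fraction, 0.0362 with at least 10 counts in every library, 0.25 once the length trend was taken out and 0.24 with the replicate block as well. Leaving out a library, it lay between -0.17 and 0.0429, and above 0 without shCtrl total replicate 2, shPRRC2B polysome replicate 2 or shPRRC2B total replicate 3. That of SRSF4 was -0.0292 without the length trend and -0.0059 with the block as well, and lay between -0.20 and 0.29 with a library left out, below 0 without shCtrl polysome replicate 2 or 3 or shPRRC2B polysome replicate 1. For SRSF8 the range was -0.050 to 0.13, below 0 without shCtrl polysome replicate 3, shCtrl total replicate 3 or shPRRC2B polysome replicate 1. For SRSF12 it was -0.11 to 0.44, below 0 without shCtrl polysome replicate 3. The change in total RNA of HNRNPU was -0.0037 with scaling by total counts, -0.10 without the length trend and -0.10 with the block as well. That in polysome RNA of LUC7L2 (0.31 with all libraries) was -0.0038 to 0.39, below 0 without shCtrl polysome replicate 3. Taking out the length trend (then adding the block) gave polysome changes of 0.0519 (0.0647) for LUC7L3, 0.34 (0.35) for SRSF10 and 0.0272 (0.0200) for TRA2B, in place of -0.39, -0.14 and -0.18. The adjusted p of SRSF10 was then 0.0484 (0.0565) by edgeR.

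The labels number replicates alike in all groups. Correlations of deviations from the group means lay between -0.20 and 0.16 for same-numbered libraries of any 2 groups. For total and polysome RNA of the same line they were small but all above 0 (0.0054 to 0.0787). With 3 libraries in a group, these values cannot decide whether the numbers pair the libraries. A replicate block gave 26 TE-down and 6 TE-up members. At this depth a change of RBM44 or RBM24, near or under 1 CPM in shCtrl cells, is poorly measured.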
